A study of Mus musculus with 16 samples.

Results

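Leukaemia inhibitory factor (LIF) is the cytokine that keeps mouse embryonic stem (ES) cells self-renewing in culture. It binds a receptor made of the LIF receptor chain (Lifr) and the shared signalling chain gp130 (Il6st). Kinases bound to these chains, Jak1 and Jak2, phosphorylate the transcription factor STAT3, which turns on target genes such as the feedback inhibitor Socs3 and the kinase gene Pim1. Epiblast stem cells (EpiSC), which stand for a later, primed state of pluripotency, are grown with FGF and activin and do not need LIF. The data here are RNA levels, so they say nothing of receptor protein or of STAT3 phosphorylation.

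The genes described are Lif, Lifr, Il6st, Jak1, Jak2, Stat3, Socs3 and Pim1, chosen as the gene probes whose name in the array files equals one of these 8 symbols. This gave 14 of 41174 gene probes, covering 7 of the 8 genes. No probe carried the name Lif, so the ligand is not analysed here. All 14 probes were well above background on at least 2 of 16 arrays and so passed the filter on dim probes, as did 34289 gene probes in all.

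RNA was measured on 16 one-colour Agilent arrays in 7 groups of mouse pluripotent lines. From the non-obese diabetic strain (NOD) came 2 arrays of EpiSC-like iPS line 6 (passages 7 and 12), 4 of EpiSC-like ES line 1 (passages 7, 10, 5 and 9 for replicates 1 to 4) and 3 of ES cells titled 4K, 43 KP/CH and 85 KP. From non-NOD mice came 2 arrays of iPS cells titled iPS_EpiSC (3M and 1K, here EpiSC iPS), 2 of EpiSC (passages 12 and 20), 1 of 129 ES cells labelled epiESM and 2 of 129 ES cells labelled mESM, both passage 8. Each EpiSC-like group was 1 line, so its arrays are passages of that line, and the mESM arrays have identical source labels. Per the labels, ES cells were cleared of feeder fibroblasts by preplating, while EpiSC and EpiSC-like cells were separated by hand. The titles do not explain mESM, epiESM or the NOD ES and iPS_EpiSC suffixes, and no LIF dose is given for any group.

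Levels are log2 signals relative to each array's 75th percentile, so a level of 0 means a signal equal to that percentile. Between 26.3% and 88.5% of an array's gene spots were well above background. The lowest shares were on slide 6, with 26.3% on NOD ES replicate 1, 40.5% on EpiSC iPS replicate 2 and 51.25% on EpiSC iPS replicate 1. The ES-type arrays carried the naive marker list (8 genes such as Zfp42 and Esrrb) at mean levels between 4.47 and 5.83, against -2.80 to -1.58 on EpiSC-like and EpiSC arrays. Of 6 primed markers such as Fgf5, all rose in the NOD EpiSC-like lines against NOD ES and in EpiSC against mESM. Their mean level was -0.46 and -0.35 on EpiSC-like iPS arrays, 1.08 to 1.37 on EpiSC-like ES arrays and 2.69 and 2.72 on EpiSC arrays. Against EpiSC, 5 of the 6 fell in the NOD EpiSC-like lines, where 16.1% of all genes were called. The array labelled NOD ES replicate 1 differed with a standard deviation (SD) of 0.697 log2 units from EpiSC iPS replicate 1 and of 1.13 and 1.15 from the remaining NOD ES arrays. The array labelled EpiSC iPS replicate 2 differed with an SD of 0.387 from NOD ES replicate 2 and of 0.963 from EpiSC iPS replicate 1. Whether label, weak signal or the shared slide lies behind these distances was not tested. Both arrays were kept in the groups of their labels, and values without this pair are given beside the results whose call they change. They also widen the spread that limma shares across groups, so leaving them out changes adjusted p-values in comparisons that do not contain them. In limma, a gene is called where its Benjamini-Hochberg adjusted p is under 0.05 over 23162 genes, and rose and fell are used only of called differences. Without this pair of arrays more genes were called in every comparison, for example 46.1% of all genes in place of 24.6% in EpiSC against mESM. Feeder fibroblast markers moved with several groups. The mean level of 16 such genes was 3.33 to 3.59 on EpiSC-like iPS arrays, 4.15 to 4.50 on EpiSC-like ES arrays, 0.65 and 3.77 on EpiSC iPS arrays and 3.12 and 3.13 on EpiSC arrays. It was 0.73 to 2.26 on NOD ES arrays, 2.80 on the epiESM array and -1.61 and -1.56 on mESM arrays. In a culture that holds several cell types, fewer cells of a type and less RNA per cell cannot be told apart. Fibroblasts are known to express Lifr, Il6st, Jak1, Jak2 and Stat3 too, and the part of feeder RNA in the values below was not tested.

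The promoter of Socs3 is shown because Socs3 is the classical direct STAT3 target of the set and the only one of the 8 genes with a STAT motif in this window. The window runs from 250 bases before to 50 after the RefSeq gene start (GRCm38.p6), on chr11:117969317-117969616, minus strand, printed 5′ to 3′, with the motif in capitals.
Socs3 promoter: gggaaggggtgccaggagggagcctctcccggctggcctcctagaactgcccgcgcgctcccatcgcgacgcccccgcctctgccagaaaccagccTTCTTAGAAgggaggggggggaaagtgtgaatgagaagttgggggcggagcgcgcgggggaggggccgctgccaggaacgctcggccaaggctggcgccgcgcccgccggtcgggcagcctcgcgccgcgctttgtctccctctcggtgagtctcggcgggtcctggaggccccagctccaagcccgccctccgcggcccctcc
The motif searched was TTCNNNGAA, which reads the same on both strands, and it begins 154 bases before the gene start. It occurred in 8.3% of 32851 RefSeq promoter windows of this length. Of 10 windows for the 8 genes, the other 9 do not hold these letters. Among 17 STAT3 target genes with a window, Bcl6 and Gfap held it. A match of letters is a description of the sequence and not a measured binding site.

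Il6st, the gp130 chain that LIF shares with the interleukin-6 family, was highest in EpiSC-like ES line 1. Its levels there were 2.74, 2.69, 2.87 and 2.70, and in EpiSC-like iPS line 6 they were 2.07 and 1.67, against -0.04, 1.79 and 1.77 in NOD ES cells. The 4 arrays of the ES-derived line lay above every other array of the study, while the iPS-derived line overlapped NOD ES cells, and the lowest value came from the array labelled NOD ES replicate 1. Over both lines weighted equally, Il6st rose by 1.14 ± 0.37 log2 units (SE, 6 arrays against 3, limma adjusted p = 0.031), a 2.20-fold difference. Without the array labelled NOD ES replicate 1 alone the difference was 0.53 with an adjusted p of 0.0667, and without both arrays of doubtful label it was 0.53 with an adjusted p of 0.00516. The call was also lost without EpiSC-like iPS replicate 1 (1.04, adjusted p = 0.0917) or EpiSC-like ES replicate 3 (1.12, adjusted p = 0.0514), and after normexp background correction (0.22, adjusted p = 0.725). On the slide that held EpiSC-like ES replicate 2 with NOD ES replicates 2 and 3, the difference was 0.91.

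In the non-NOD lines Il6st read 1.37 and 1.42 in EpiSC, against 1.67 and 1.66 in 129 ES mESM. The difference of -0.27 (95% confidence interval -1.41 to 0.87) did not pass the test. EpiSC iPS (0.91 and 1.76) and 129 ES epiESM (1.32) lay in the same range. The order of group means was EpiSC-like ES (2.75), EpiSC-like iPS (1.87), mESM (1.67), EpiSC (1.40), EpiSC iPS (1.33), epiESM (1.32) and NOD ES (1.17). EpiSC-like ES did not overlap its neighbour. EpiSC-like iPS overlapped mESM, mESM did not overlap EpiSC, and EpiSC, EpiSC iPS, epiESM and NOD ES overlapped one another in turn. Of all genes, 55.7% did not overlap between EpiSC-like iPS and EpiSC-like ES, and 84.3% between EpiSC and mESM.

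**Figure D1:**
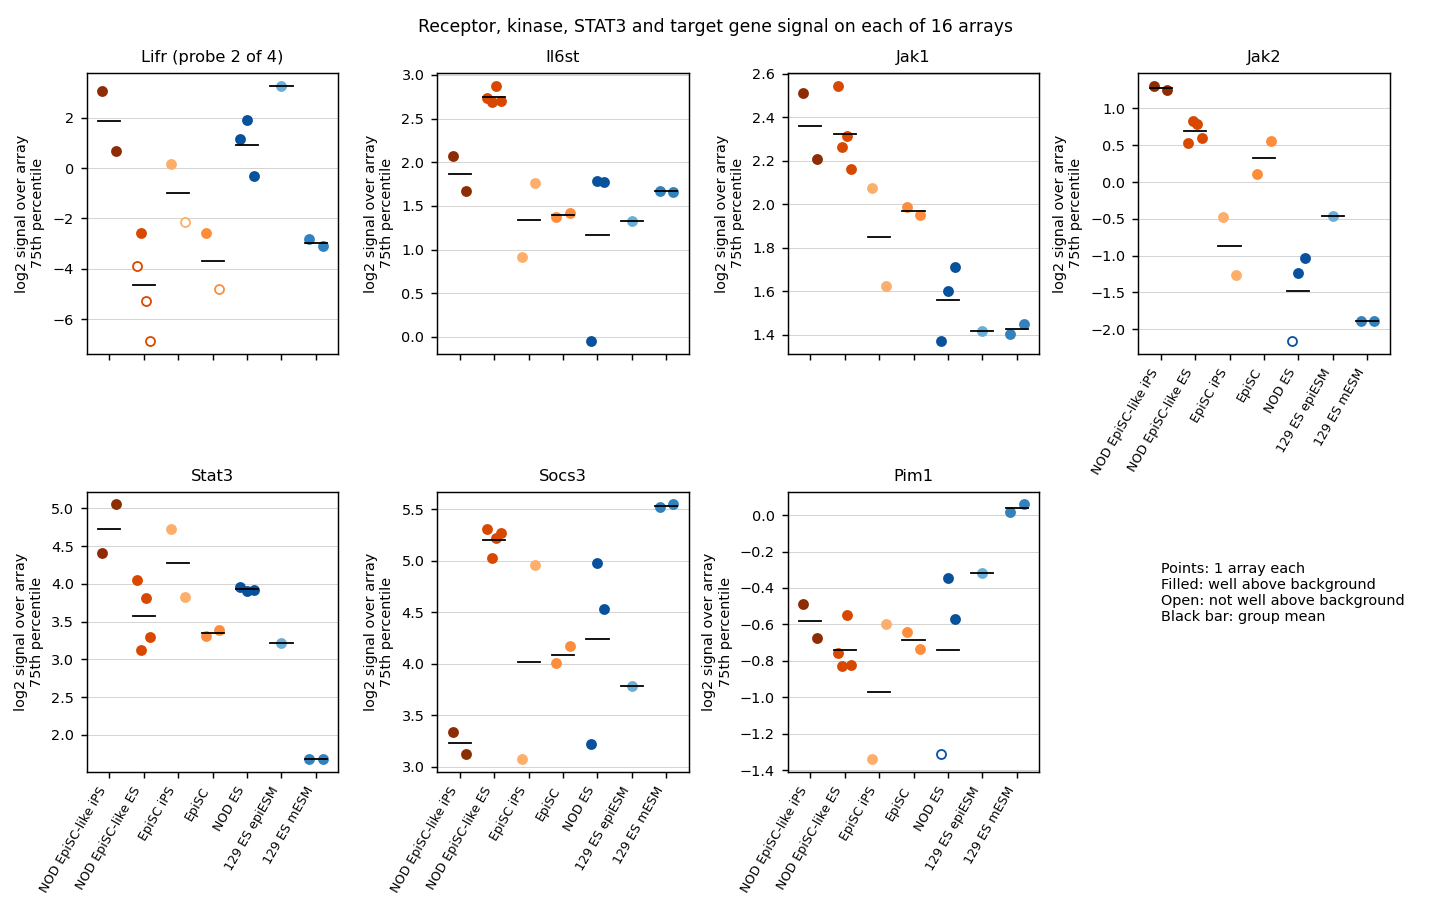
Level of each gene on each of the 16 arrays (log2 signal over the array's 75th percentile, y axes differ between panels), by group, with 1 point per array, open where the probe was not well above background, and a bar at the group mean. Il6st is highest in the 4 EpiSC-like ES arrays, Jak2 is highest in EpiSC-like iPS, and Stat3 is lowest and Socs3 highest in the 2 mESM arrays.

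Lifr, the LIF receptor chain that pairs with gp130, was read by 4 probes that did not give one answer. They lie on chromosome 15 of the mm7 build that the files use, at 7017960 to 7018019 (probe 1), 7012421 to 7012480 (probe 2), 7017869 to 7017928 (probe 3) and 7011508 to 7012314 (probe 4). Probes 1 and 3 lie next to each other and moved together (Pearson r = 0.81 over 16 arrays), and probes 3 and 4 had r = 0.69. Probe 2 correlated with probe 4 at r = 0.04 and with probes 1 and 3 at 0.55 and 0.58. These correlations describe the probes over arrays that share groups and carry no test.

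Probe 2 has the highest mean and stood for Lifr in the fit over genes. Its levels were 3.06 and 0.68 in EpiSC-like iPS, and -3.88, -2.60, -5.29 and -6.87 in EpiSC-like ES, where 1 of 4 arrays was well above background. In NOD ES it read 1.18, 1.93 and -0.30. It read 0.17 and -2.15 in EpiSC iPS and -2.57 and -4.80 in EpiSC, with 1 array of each group well above background. The epiESM array read 3.27, against -2.83 and -3.11 in mESM. Both EpiSC-like iPS arrays lay above all EpiSC-like ES arrays, and the NOD ES and epiESM arrays lay above both mESM arrays. Of all genes, 55.7% did not overlap in the first of these pairs, 52% in NOD ES against mESM and 93.4% in epiESM against mESM.

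On the remaining Lifr probes the range was narrower. Probe 1 read -0.47 and -0.31 in EpiSC-like iPS, -2.02 to -1.61 in EpiSC-like ES and -2.27, -1.46 and -1.18 in NOD ES. It read -1.95 and -2.26 in EpiSC, against -1.41 and -1.29 in mESM. Probe 3 read -1.48 and -1.87 in EpiSC-like iPS, -3.38 to -3.08 in EpiSC-like ES and -2.63, -2.34 and -2.50 in NOD ES. It read -3.59 and -3.55 in EpiSC, against -2.22 and -2.05 in mESM. Probe 4 read -0.38 and -1.05 in EpiSC-like iPS, -1.86 to -1.49 in EpiSC-like ES and -2.35, -1.15 and -1.17 in NOD ES. It read -3.44 and -2.85 in EpiSC, against -0.21 and -0.33 in mESM. On all of probes 1, 3 and 4 EpiSC lay below mESM without overlap, and EpiSC-like iPS lay above EpiSC-like ES without overlap. With so few arrays this is common, since 84.3% of all genes did not overlap in EpiSC against mESM and 55.7% in EpiSC-like iPS against EpiSC-like ES. On probe 3 the NOD lines lay on both sides of NOD ES, EpiSC-like iPS above and EpiSC-like ES below all 3 arrays.

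In a limma fit over all 34289 probes, EpiSC minus mESM was -1.43 ± 0.22 on probe 3 (adjusted p = 0.00105) and -2.87 ± 0.80 on probe 4 (adjusted p = 0.0251). Both fell, where 22.2% of all probes were called. On probe 1 the difference was -0.76 (adjusted p = 0.124) and on probe 2 it was -0.71 (adjusted p = 0.736). Without both arrays of doubtful label probe 1 was called too (adjusted p = 0.00996), where 43.3% of probes were called. One EpiSC array was not well above background on probes 3 and 4. In the NOD EpiSC-like lines against NOD ES, where 36.1% of probes were called, no Lifr probe passed. These differences average both lines, whose means lay on opposite sides of the NOD ES mean on every Lifr probe and cancelled on probe 3. Probes 1, 3 and 4 gave 0.50, 0.05 and 0.33 (0.19, -0.022 and -0.068 without both arrays of doubtful label), and probe 2 gave -2.33 (adjusted p = 0.0904).

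The interaction asks whether the difference between the primed-type and ES states was the same in the NOD and non-NOD lines. On probe 3 it was 1.48 ± 0.27 (adjusted p = 0.00711), with a difference of 0.05, the mean of lines on opposite sides of NOD ES, in the NOD lines and of -1.43 in the non-NOD lines. Of all probes 10.2% were called in this test. Probes 1 and 4 gave 1.27 (adjusted p = 0.0735) and 3.20 (adjusted p = 0.0646), and probe 2 gave -1.62 (adjusted p = 0.629). On these probes too the NOD value averages line means on opposite sides of the NOD ES mean. Without both arrays of doubtful label probes 1, 3 and 4 gave 0.95, 1.41 and 2.80 and all 3 were called (adjusted p = 0.0167, 0.00149 and 0.00039), where 32% of probes were called. The NOD EpiSC-like lines minus EpiSC gave 0.98 ± 0.27 on probe 1 (adjusted p = 0.0363) and 1.13 ± 0.18 on probe 3 (adjusted p = 0.0028), where 13.9% of probes were called. On probe 1 the group means were -0.39 in EpiSC-like iPS, -1.87 in EpiSC-like ES and -2.11 in EpiSC, and EpiSC-like ES overlapped EpiSC. Without both arrays of doubtful label probe 4 was called as well (1.91, adjusted p = 0.000192), where 38.6% of probes were called. Between the NOD EpiSC-like lines themselves, iPS minus ES, 3 of 4 probes rose, where 24.7% of probes were called. These were probe 1 (1.48, adjusted p = 0.00361), probe 2 (6.53, adjusted p = 0.00254) and probe 3 (1.54, adjusted p = 0.000272). Probe 4 gave 1.03 (adjusted p = 0.300, and 0.00525 without both arrays of doubtful label, where 49% of probes were called). The size on probe 2 is loosely fixed, since 1 of 4 EpiSC-like ES arrays was well above background, and it was 2.11 (adjusted p = 0.0762) after normexp background correction. A further probe named A230075M04Rik, an older name of Lifr in RefSeq, is no member by the rule. It was well above background on 3 of 16 arrays, both mESM arrays and EpiSC-like ES replicate 3.

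**Figure D2:**
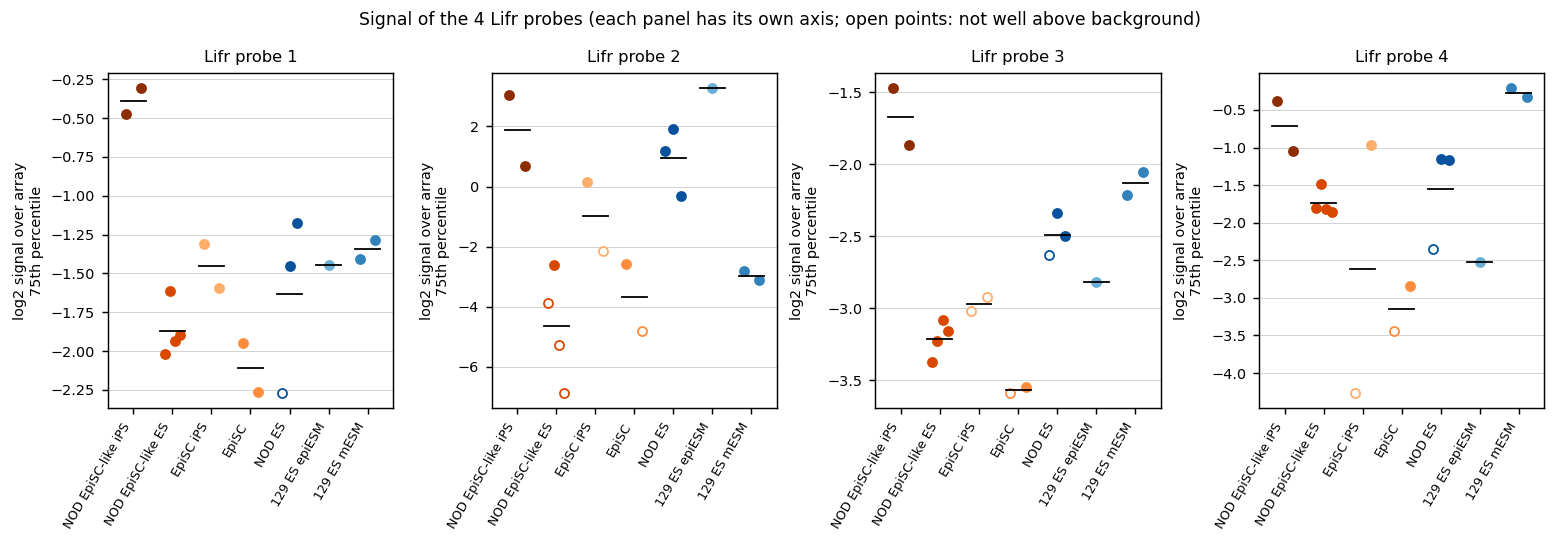
Level of each of the 4 Lifr probes on the 16 arrays (log2 signal over the array's 75th percentile, each panel with its own y axis), by group, with open points where a probe was not well above background. EpiSC-like iPS lies above EpiSC-like ES on all 4 probes, while probe 2 spans -6.87 to 3.27 and orders the remaining groups differently from probes 1, 3 and 4.

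Jak1, the kinase held to gp130 that LIF signalling chiefly uses, was higher in both primed-type NOD lines. Its first probe read 2.51 and 2.21 in EpiSC-like iPS and 2.54, 2.26, 2.31 and 2.16 in EpiSC-like ES, against 1.37, 1.60 and 1.71 in NOD ES. All 6 EpiSC-like arrays lay above the 3 NOD ES arrays, groups between which 28.8% of all genes did not overlap. The difference was 0.78 ± 0.17 (adjusted p = 0.00315), and the second probe, in the fit over probes, gave 0.83 ± 0.17 (adjusted p = 0.00202). After normexp background correction the first probe gave -0.17 (adjusted p = 0.714), where the median of all genes stood at 0.58 in place of -0.27. In the non-NOD lines Jak1 read 1.98 and 1.95 in EpiSC, against 1.40 and 1.45 in mESM. That difference of 0.54 (95% confidence interval 0.03 to 1.06) had an adjusted p of 0.117, and without both arrays of doubtful label it was called (adjusted p = 0.0214). The second probe rose in EpiSC by 0.77 ± 0.23 (adjusted p = 0.0334).

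Jak2, a second kinase of the same receptors, was higher in the primed-type lines of both strain sets. It read 1.31 and 1.25 in EpiSC-like iPS and 0.53, 0.83, 0.79 and 0.60 in EpiSC-like ES, against -2.16, -1.24 and -1.04 in NOD ES. The groups did not overlap, as was so for 28.8% of all genes. The probe was not well above background on the array with the lowest value, NOD ES replicate 1. Jak2 rose by 2.46 ± 0.27 log2 units (adjusted p = 2.61e-05), a 5.51-fold difference. It stayed called, at 2.12 (adjusted p = 2.16e-06), without both arrays of doubtful label. On the slide with EpiSC-like ES replicate 2 and NOD ES replicates 2 and 3, but no EpiSC-like iPS array, the difference was 1.97. In EpiSC it read 0.11 and 0.56, against -1.89 and -1.89 in mESM, a rise of 2.22 ± 0.37 (adjusted p = 0.00132), or 4.67-fold. The state differences of the NOD and non-NOD lines themselves differed by 0.24 (adjusted p = 0.801).

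The other ES-type groups lay between EpiSC and mESM. Jak2 read -0.48 and -1.27 in EpiSC iPS and -0.47 in the epiESM array. The epiESM array was 1.42 above mESM (adjusted p = 0.108, and 0.00171 without both arrays of doubtful label). EpiSC iPS fell below EpiSC (-1.20, adjusted p = 0.038), a call that was lost in 15 of 25 alternatives and turned direction on the second probe (0.29). Among those alternatives was slide as a random block, with -1.03 (adjusted p = 0.0885). The order of group means was EpiSC-like iPS (1.28), EpiSC-like ES (0.69), EpiSC (0.33), epiESM (-0.47), EpiSC iPS (-0.87), NOD ES (-1.48) and mESM (-1.89). EpiSC-like ES overlapped EpiSC, EpiSC iPS overlapped NOD ES, and NOD ES overlapped mESM. A second Jak2 probe averaged -4.70, was well above background on 6 arrays and gave -0.32 (adjusted p = 0.769) in the NOD EpiSC-like lines against NOD ES. Jak1 and Jak2 varied together over the 16 arrays (r = 0.89), arrays that share the same 7 groups.

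Stat3, the transcription factor that the kinases activate, was lowest in 129 ES mESM. It read 3.31 and 3.39 in EpiSC, against 1.68 and 1.68 in mESM, on a probe spotted 10 times per array. Stat3 rose by 1.67 ± 0.37 log2 units in EpiSC (adjusted p = 0.00693), a 3.18-fold difference. After normexp background correction it was 1.54 (adjusted p = 0.301). In the NOD lines it read 4.40 and 5.05 in EpiSC-like iPS and 4.06, 3.13, 3.81 and 3.29 in EpiSC-like ES, against 3.96, 3.91 and 3.91 in NOD ES. The NOD ES values lay inside the range of the EpiSC-like arrays, and the difference of 0.22 (95% confidence interval -0.36 to 0.80) did not pass the test.

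Other ES-type groups also stood above mESM. NOD ES rose over mESM by 2.25 ± 0.34 (adjusted p = 0.00328), or 4.75-fold, and this gap was 2.23 without both arrays of doubtful label. With the mESM arrays averaged into 1 its adjusted p was 0.0571, and after normexp background correction 0.37 with a difference of 2.04. EpiSC iPS, at 4.73 and 3.83, rose over mESM by 2.60 ± 0.37 (adjusted p = 0.0026), and after normexp background correction the difference was 2.39 (adjusted p = 0.309). The epiESM array read 3.22, which was 1.54 above mESM (adjusted p = 0.0836, and 0.0191 without both arrays of doubtful label). The state differences of the NOD and non-NOD lines differed by -1.44 (adjusted p = 0.0603), called in 6 of 25 alternatives, for example at -1.43 (adjusted p = 0.0245) without both arrays of doubtful label. A second Stat3 probe averaged -3.52 and gave -0.29 for EpiSC minus mESM (adjusted p = 0.831).

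Socs3, the feedback inhibitor that binds gp130 and is switched on by STAT3, was highest in mESM, where Stat3 was lowest. It read 4.01 and 4.17 in EpiSC, against 5.52 and 5.55 in mESM, and EpiSC lay below without overlap, as 84.3% of all genes do not overlap between these groups. The difference of -1.44 ± 0.59 had an adjusted p of 0.0974, and was called (adjusted p = 0.000157) without both arrays of doubtful label. Without that pair 46.1% of all genes were called in this comparison, against 24.6% with it. The epiESM array, at 3.79, was 1.75 below mESM (difference -1.75, adjusted p = 0.215, with 1 array assumed to vary like the other groups, and 0.000528 without that pair). Socs3 in NOD ES cells read 3.23, 4.97 and 4.53, all below mESM (difference -1.29, adjusted p = 0.170, against -0.78 and 0.011 without that pair), and the lowest was the array labelled replicate 1. Of all genes, 8.94% were called in NOD ES against mESM, and 26.1% without that pair. EpiSC iPS read 3.07 and 4.96 (difference from mESM -1.51, adjusted p = 0.130), and without the array labelled EpiSC iPS replicate 2 the difference was -2.46 (adjusted p = 0.011). All values outside mESM thus lay below both mESM arrays, including those of EpiSC-like ES. Of all genes, 52% did not overlap in NOD ES against mESM, 59.9% in EpiSC iPS against mESM and 93.4% in epiESM against mESM.

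Between the NOD EpiSC-like lines Socs3 split by line. It read 3.33 and 3.12 in EpiSC-like iPS, against 5.30, 5.03, 5.22 and 5.27 in EpiSC-like ES. The lines did not overlap, as was so for 55.7% of all genes. Socs3 fell by 1.98 ± 0.51 on the log2 scale in the iPS line (adjusted p = 0.0155), to 0.254 of the level in the ES line. On the slide with 1 array of each line the difference was -1.97. Without EpiSC-like iPS replicate 1 or 2 the difference was -2.08 or -1.87 and its adjusted p 0.0549 or 0.122, and after normexp background correction the difference was -3.50 (adjusted p = 0.0735). Because the line means lay on opposite sides of the NOD ES mean, the EpiSC-like mean differed from NOD ES by -0.03 (95% confidence interval -0.96 to 0.90). Without both arrays of doubtful label that difference was -0.54 and was called (adjusted p = 0.0116).

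The same pair of lines also differed in Stat3, in the other direction. EpiSC-like iPS rose over EpiSC-like ES by 1.16 ± 0.32 in Stat3 (adjusted p = 0.0214), a gap of 0.35 on the 1 slide that held both lines and 0.83 (adjusted p = 0.241) without EpiSC-like iPS replicate 2. Without EpiSC-like ES replicate 4 it was 1.06 (adjusted p = 0.0514). After normexp background correction the Stat3 difference was -0.74 (adjusted p = 0.335), and after quantile normalization it was 0.88 (adjusted p = 0.0553). Of the 7 genes, Lifr and Stat3 rose and Socs3 fell between these lines, where 25.8% of all 23162 genes were called. Fibroblast markers were lower in the iPS line, with 4 of 16 called, and their part was not tested.

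Pim1, a serine kinase gene and STAT3 target, was highest in mESM on its first probe. It read -0.64 and -0.74 in EpiSC, against 0.01 and 0.06 in mESM, groups that did not overlap, as is so for 84.3% of all genes. The difference of EpiSC minus mESM was -0.72 (95% confidence interval -1.44 to -0.01, adjusted p = 0.130), called without both arrays of doubtful label (adjusted p = 0.00336). In EpiSC-like iPS it read -0.49 and -0.67 and in EpiSC-like ES -0.76, -0.83, -0.55 and -0.83, against -1.31, -0.35 and -0.57 in NOD ES, a difference of 0.08 (95% confidence interval -0.43 to 0.60). Pim1 was -0.32 in the epiESM array and -1.34 and -0.60 in EpiSC iPS. A second Pim1 probe, well above background on 12 arrays, correlated with the first at r = -0.35. Its group means were -1.95 in NOD ES, -2.32 in EpiSC iPS, -2.36 in EpiSC-like iPS and -2.62 in mESM. They were -2.86 in epiESM, -3.12 in EpiSC-like ES and -3.83 in EpiSC.

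**Figure D3:**
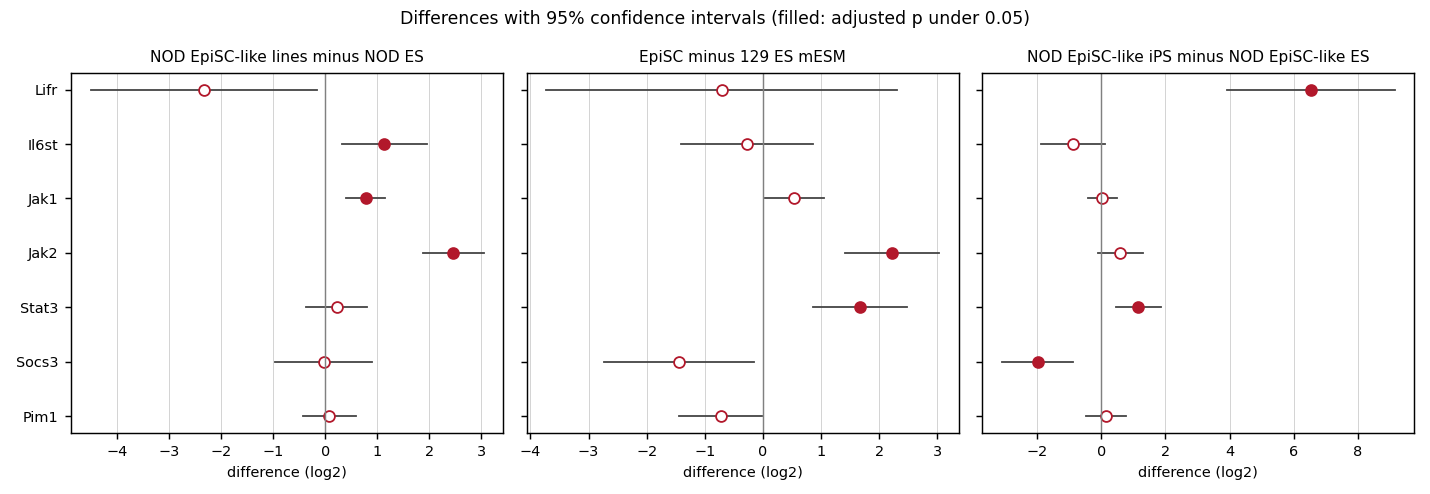
Log2 differences of the 7 genes with 95% confidence intervals from limma, in 3 comparisons, filled where the adjusted p is under 0.05. Jak2 stands at 2.46 and 2.22 in the first and second panels, Stat3 at 0.22 and 1.67, and Socs3 at -1.98 in the third, where Lifr rests on probe 2.

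Counted over the 7 genes measured, Il6st, Jak1 and Jak2 rose and none fell in the NOD EpiSC-like lines against NOD ES, where 38.7% of all genes were called. In EpiSC against mESM, Stat3 and Jak2 rose and none fell, where 24.6% of all genes were called. The median difference was 0.22 over the 7 genes and -0.27 over all genes in the NOD comparison, and -0.27 and -0.34 in the non-NOD one. None of the 7 was called in the NOD EpiSC-like lines against EpiSC (16.1% of all genes called), in epiESM against mESM (3.97%) or in the interaction (12.5%). At an unadjusted limma p under 0.05 there were 1 (Stat3), 4 (Lifr, Stat3, Socs3 and Jak2) and 2 (Il6st and Stat3) of the 7 in these comparisons, where 31.8%, 18.7% and 26.3% of all genes had such a p. Stat3 alone was called in NOD ES against mESM (8.94%) and in EpiSC iPS against mESM (10.6%), and Jak2 alone in EpiSC iPS against EpiSC (21.2%). Without both arrays of doubtful label the called genes of the set were 5 in EpiSC against mESM, 4 in the NOD EpiSC-like lines against EpiSC and 3 in the interaction (Il6st 0.80, Stat3 -1.43 and Socs3 0.91, with adjusted p = 0.0114, 0.0245 and 0.0137). In those fits 46.1%, 41.6% and 35.7% of all genes were called. Of 16 fibroblast markers, 12 rose in the NOD EpiSC-like lines against NOD ES and 14 in EpiSC against mESM, and none fell. The part of feeder RNA in the differences of the 7 genes was not tested.

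The wider pathway was read from 57 genes in lists by role, chosen with earlier results of these data known, and all 57 had a tested probe. Osmr stands in both the receptor and the target list. In the NOD EpiSC-like lines against NOD ES, 17 rose and 12 fell, where 38.7% of all genes were called. In EpiSC against mESM, 16 rose and 13 fell, where 24.6% of all genes were called. The median difference of the list was 0.29 in the first, against -0.27 over all genes, and -0.27 in the second, against -0.34. Without both arrays of doubtful label the counts were 22 and 17 in the first and 22 and 20 in the second, where 52% and 46.1% of all genes were called. After normexp background correction they were 10 and 10, and 6 and 4, where 7333 and 1519 of 23162 genes were called.

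Among the other ligands of gp130 receptors, 2 of 9 rose and none fell in the NOD EpiSC-like lines, namely Ctf1 (cardiotrophin 1, 1.19) and Clcf1 (1.22). Of all genes 38.7% were called there and 24.6% in EpiSC. In EpiSC, Cntf (ciliary neurotrophic factor, 1.64) and Il11 (1.76) rose and Ebi3 fell by 1.31 on the log2 scale. Of 6 other receptor chains, Il11ra1 rose in the NOD EpiSC-like lines (2.33 ± 0.39, adjusted p = 0.000553). In EpiSC, Osmr, the oncostatin M receptor chain that pairs with gp130, rose by 4.17 ± 0.76 (adjusted p = 0.00243) and Il27ra fell by 1.94 on the log2 scale. Osmr is also expressed in fibroblasts, whose markers moved the same way, and their part in this was not tested.

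Among the other kinase and STAT genes, Stat5b rose by 1.60 and Stat5a by 0.83 in the NOD EpiSC-like lines, and Stat4 fell by 3.65 on the log2 scale. In EpiSC, Stat5b rose by 1.06, while Tyk2 (-1.70), Stat6 (-1.57) and Stat2 (-1.20) fell. Stat5b was the one gene of this list that passed the test in both comparisons.

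Of 15 inhibitors, 3 rose and 6 fell in the NOD EpiSC-like lines (38.7% of all genes called), and 5 rose and 3 fell in EpiSC (24.6%). The SOCS-family genes Socs1, Socs5 and Cish rose in both, by 1.18, 1.86 and 1.93 in the NOD EpiSC-like lines and by 1.05, 2.36 and 2.13 in EpiSC. Socs2 fell by 2.15 on the log2 scale in the NOD EpiSC-like lines (adjusted p = 1.15e-05). Ptpn6 and Pias2, a phosphatase and a STAT-binding protein of the list, fell in both, with -1.97 and -1.57 in the NOD EpiSC-like lines and -1.20 and -1.38 in EpiSC. Ptpn1 fell by 0.84 in the NOD EpiSC-like lines and rose by 0.82 in EpiSC.

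Of 20 STAT3 target genes, 8 rose and 5 fell in each comparison, where 38.7% and 24.6% of all genes were called. The target list did not move one way. Tfcp2l1, a STAT3 target that supports naive ES cells, fell by 5.12 ± 0.96 (adjusted p = 0.00129) in the NOD EpiSC-like lines and fell by 5.19 ± 1.34 (adjusted p = 0.0154) in EpiSC. Gbx2, Bcl3 and Mcl1 also fell in both, with -1.35, -1.40 and -1.50 in the NOD EpiSC-like lines and -3.61, -2.42 and -0.88 in EpiSC. Klf5 fell by 2.19 in the NOD EpiSC-like lines, and Klf4 gave -1.44 (adjusted p = 0.0743) there and -0.21 (adjusted p = 0.863) in EpiSC.

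Fos, Junb, Cebpb, Bcl6 and Il4ra rose in both comparisons. Fos rose by 1.06 in the NOD EpiSC-like lines and by 6.81 ± 0.45 in EpiSC (adjusted p = 3.31e-06), and Junb rose by 1.62 in the NOD EpiSC-like lines and by 3.94 in EpiSC. The Fos difference itself differed between the NOD and non-NOD lines by -5.75 (adjusted p = 0.000229). Cebpd (4.41), Ier3 (3.61) and Gfap (2.21) rose in the NOD EpiSC-like lines, and their interactions of 3.06, 2.91 and 2.77 were called too (adjusted p = 0.00613, 0.00817 and 0.00834). The first and second comparisons share no array, and 16 of the 29 pathway genes called in each were called in both (55.2% of each list). Of these 9 were higher in both, 6 lower in both and 1 opposite. As a share of all genes tested, 28.1% of the pathway list and 16.8% of all genes were called in both. Of all genes called in the first comparison 43.4% were called in both, and of those called in the second 68.2%.

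**Figure D4:**
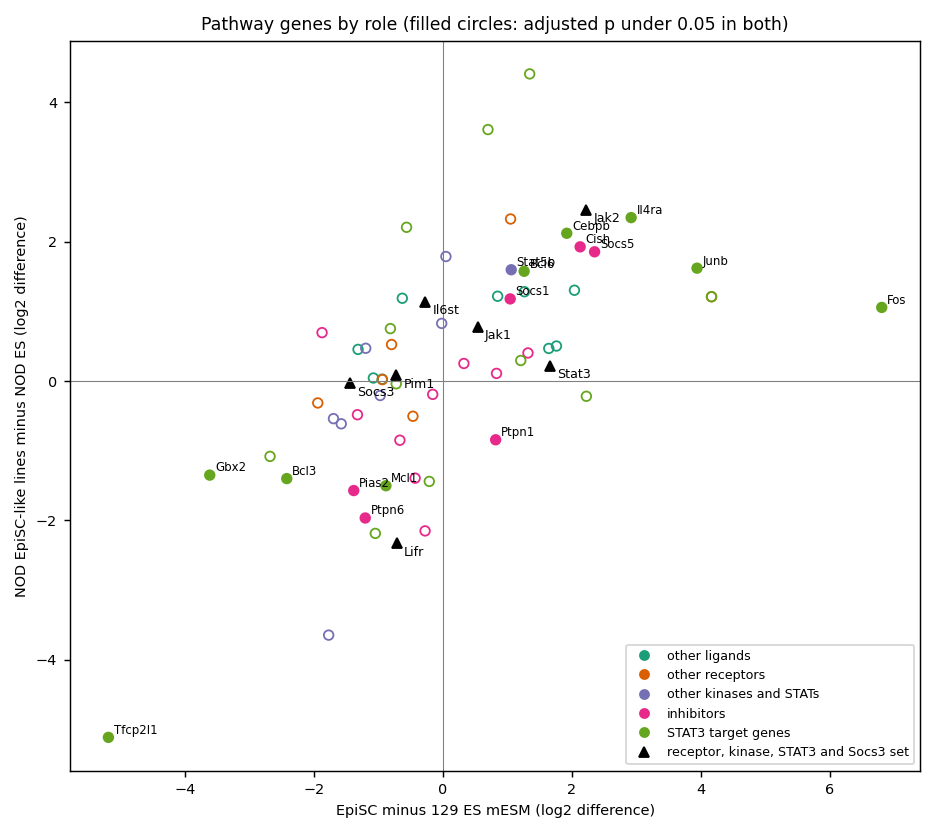
Log2 difference of each pathway gene in EpiSC minus 129 ES mESM (x axis) and in the NOD EpiSC-like lines against NOD ES (y axis), coloured by role and filled where called in both, with the 7 genes of the set as triangles. Tfcp2l1 lies lowest on both axes, Fos lies furthest right at 6.81, and Jak2 lies at 2.22 and 2.46.

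By the largest changes of the pathway list, the NOD EpiSC-like iPS line fell below the ES line in Fos (-4.62), Cntf (-3.37) and Gfap (-3.12), alongside Socs3. Il6 and Gbx2 were not well above background on the iPS arrays, and were at least 6.52-fold and 6.96-fold lower there (adjusted p = 0.00311 and 7.16e-05). In this comparison 7 of 57 rose and 12 fell, where 25.8% of all genes were called.

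As a description over 16 arrays, the genes with the most similar profiles to each member, among 16022 or 16023 other genes well above background on at least 12 arrays, were named by Pearson r. For Il6st they were Aldoc (0.98), Rab29 (0.96) and Serpinb1a (0.96), and for Jak1 Rnf215, Zfp637 and Dnase1l1 (all 0.97). For Jak2 the most alike named genes were Rnase4 (0.98) and Rgl1 (0.97). For Stat3 they were Ubxn4 (0.96), Ctdnep1 (0.95) and Stx4a (0.95), for Socs3 Hibch (0.97), Dnaaf4 (0.96) and Mknk1 (0.95), and for Pim1 Spice1 (0.93), Pip4p1 (0.92) and Pgap2 (0.92). For Lifr probe 2 they were Cdcp1 (0.96) and Myo1e (0.95). Within the set, Socs3 correlated with Stat3 at -0.66, with Il6st at 0.64 and with Pim1 at 0.55. The arrays fall into groups that share lines, so these values describe the groups as much as single arrays.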

How the data were processed

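The deposited scanner files hold spot intensity values made with Feature Extraction 10.1.1.1, background-subtracted per the file headers, on an array design with grid build mm7. The deposited value table holds log2 values with a median of 6.93 in every column, each ranking features like the mean signal of the same array, and it served as an alternative. The submitters' processing notes name limma. Control spots were dropped, outlier spots set to missing, spots averaged per probe, and each array's 75th percentile subtracted from its log2 processed signal. Probes well above background on fewer than 2 arrays were dropped. The probe with the highest mean stood for a gene. limma 3.58.1 (R 4.3.3) fitted 1 mean per group over 16 arrays, with the lone epiESM array assumed to vary like the others, and Benjamini-Hochberg adjustment over 23162 genes. Names came from RefSeq by accession, symbol or older symbol. The fit was tested on simulated data. Alternatives changed background correction, scaling, filter, probe rule, slide block and arrays. Named genes were the set, pathway genes called in the first comparisons, up to 6 in others, and the 3 most alike genes. Members and lists were chosen with earlier results of these data known. Replicates are passages or arrays, so p-values measure only their spread, and the number of arrays limits precision. The result for 1 gene of the pathway lists is not reported here.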

Additional observations from a re-analysis of the deposited data

Results flagged for a closer look

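On Lifr probe 3, the state difference of the NOD lines minus that of the non-NOD lines was 1.48 (adjusted p = 0.00711 over all probes), where the NOD value averages an iPS-derived and an ES-derived line on opposite sides of NOD ES. Strain, line and derivation cannot be told apart in it. The EpiSC-like ES array replicate 2 was the highest of its group on Lifr probe 4, at -1.49, far from the other 3 for the width of the group. Over the 14 probes 28 ends of this group were examined, and chance flags about 1 in 20 groups.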

How the results depend on the processing

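Comparisons are given by letter: NOD EpiSC-like lines against NOD ES (A), EpiSC against mESM (B), NOD EpiSC-like lines against EpiSC (C), EpiSC-like iPS against EpiSC-like ES (D), NOD ES against mESM (E), EpiSC iPS against EpiSC (F), EpiSC iPS against mESM (G), epiESM against mESM (H) and the interaction (I). No paired analysis was possible because replicate numbers were given in accession order. Counts of all genes called in B to I were 1519, 783, 61, 33, 745, 7, 21 and 30 after normexp background correction, and 10637, 9582, 11743, 6009, 9744, 8606, 5767 and 8236 without both arrays of doubtful label, against 5708, 3730, 5968, 2070, 4902, 2466, 919 and 2904. With the mESM arrays averaged, B, E, G, H and I gave 2782, 162, 246, 104 and 1013. With slide as a random block (correlation 0.259) E and G gave 1223 and 1250, and with no filter H gave 585. Leaving out 1 array at a time gave 7477 to 10574, 2834 to 8111, 1023 to 6355, 2499 to 8612, 152 to 3235, 2469 to 7400, 272 to 5099, 104 to 2581 and 1033 to 4975 genes in A to I.

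Of the 7 genes, normexp called 1 in A and B and 0 in D to G. Without both arrays of doubtful label B to I had 5, 4, 5, 4, 4, 6, 4 and 3. The mean over probes gave 1 in C and 0 in E, F and G. Averaged mESM arrays gave 0 in E and F, quantile normalization 2, 2 and 1 in E, G and H, and the deposited values gave 3, 0, 2, 1 and 1 in E to I. The slide block and no filter gave 0 in F, and a filter of 8 arrays 1 in H and I. Leaving out 1 array gave 2 to 4, 2 to 4, 0 to 1, 1 to 4, 0 to 1, 0 to 1, 1 to 4, 0 to 2 and 0 to 1.

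Directions turned as follows, and the cause was not tested. Slide 4 held EpiSC-like ES but no EpiSC-like iPS array, so its values set the ES line alone against NOD ES. Over all arrays the ES line also averaged below NOD ES in Stat3 (3.57 against 3.93) and above it in Socs3 (5.21 against 4.24). In A Stat3 was -1.06 with normexp, -0.78 within slide 4 and -0.015 on probe 2, and Jak1 was -0.17 with normexp. Socs3 was 0.33 with quantile normalization, 0.37 in the deposited table, 0.27 within slide 4 and -0.54 to 0.34 leaving out 1 array. Pim1 was -0.00247 with quantile normalization, -0.36 over all probes, -0.20 without both arrays of doubtful label, -0.80 on probe 2, -0.37 within slide 4 and -0.20 to 0.28 leaving out 1 array. Lifr was 0.50, 0.049 and 0.33 on probes 1, 3 and 4, and Jak2 -0.32 on probe 2. In B, Lifr was -1.83 to 0.40 leaving out 1 array and Stat3 -0.29 on probe 2. In D, Stat3 was -0.74 with normexp and -0.011 on probe 2, and in F Jak2 was 0.29 on probe 2. In I, Jak1 was -0.58 and Jak2 -0.26 with normexp. Jak2 was -0.94 over all probes, -0.10 without both arrays of doubtful label, -2.13 on probe 2 and -0.10 to 0.47 leaving out 1 array. Lifr was 1.08 over all probes and 1.27, 1.48 and 3.20 on probes 1, 3 and 4, and Stat3 0.28 on probe 2. For single genes, 251 of the values from alternatives other than leaving out 1 array kept direction and side of the threshold. Of the remaining values, 30 turned direction, 22 lost and 23 gained the call, and 2 within a slide kept direction but moved in size. In a fit of all probes without both arrays of doubtful label, chosen after seeing the data, Lifr turned to -0.022 on probe 3 and -0.068 on probe 4 in A. Probes near background limit Lifr and B Stat3, Jak2 and Pim1 probes.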
